A study of Mus musculus with 15 samples.

Results

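The genes described here are 46 developmental regulators of Polycomb control, that is, transcription factor genes that are known targets of Polycomb repression in many tissues. They were chosen by name from the Pax, Lhx, Gata, Tbx, Nkx and Fox families and the sine oculis homeobox family (Six2, Six3 and Six6), together with Wt1 and Isl1, and all 46 were found by symbol among the 54232 genes of the deposited tables. They were Pax1, Pax2, Pax3, Pax5, Pax6, Pax7, Pax8, Pax9, Six2, Six3, Six6, Lhx1, Lhx3, Lhx4, Lhx5, Lhx9, Gata2, Gata3, Gata4, Gata5, Gata6, Tbx1, Tbx2, Tbx3, Tbx4, Tbx5, Tbx15, Tbx18, Tbx20, Nkx2-3, Nkx2-5, Nkx6-1, Nkx6-2, Foxa1, Foxa2, Foxc1, Foxc2, Foxd1, Foxd2, Foxd3, Foxe1, Foxf1, Foxf2, Foxl2, Wt1 and Isl1.

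RNA was sequenced from 15 tumours of the mouse frontal cortex. All mice were C57BL/6 with Nestin Tv-a, which puts the receptor for avian RCAS viruses on Nestin-expressing neural progenitors, and with p53 fl/fl. Each was injected with DF-1 chicken cells that carried RCAS-Cre, RCAS-PDGFA and histone H3.3 fused to GFP, so the tumours of every group, the controls included, lack p53 where Cre acted and receive the growth factor PDGFA. ATRXfl_G34R (n = 4) carried ATRX fl/fl and received H3.3G34R, the glycine-to-arginine form found in some human gliomas. ATRXfl_WT (n = 4) carried ATRX fl/fl and received H3.3WT. Mice of p53_G34R (n = 3) had intact Atrx and received H3.3G34R, and those of p53_WT (n = 4) had intact Atrx and received H3.3WT. Mice were followed to a functional end point, at which the tumour was taken, and the labels give no age. The transgenes reach only cells that carry the receptor, whereas a piece of tumour also holds vessels, blood, immune cells and cortex. The title of the series names PRC2 targets among the genes raised by H3.3G34R together with Atrx loss, and the comparisons below ask what these 46 genes did.

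Polycomb proteins keep developmental genes off in cells where they are not needed. PRC2, with the catalytic subunit Ezh2 and the core subunits Eed and Suz12, places the repressive methyl mark on histone H3, and PRC1 binds this mark and modifies histone H2A. Typical targets are homeobox, T-box, GATA and forkhead genes whose promoters lie in CpG islands, stretches of DNA rich in the dinucleotide CG. In the brain such genes stay silent outside the region or cell type that needs them, and some are used by cells of the vessel wall and the meninges.

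The labels were checked with Atrx, whose product remodels chromatin and assists in loading H3.3. Atrx had 1346 to 3124 normalized counts in the 8 tumours with the floxed gene and 5143 to 8540 in the 7 with the intact gene, so the genotypes did not overlap (2376 ± 619 against 6687 ± 1395, SD; log2 difference -1.51; exact permutation test, two-sided, p = 0.0001554, the smallest that 6435 splits can give). Libraries held 22807315 to 35679129 reads in genes. A normalized count is the reads of a gene scaled to a common library size over all 15 libraries, and a count of 0 reads allows a level of up to 2.56 to 3.62 normalized counts, which is 3 reads (counting error only). A pair of tumours stood apart. ATRXfl_WT_1 had a summed level of 9 endothelial markers of 78307, against 7793 to 21636 in the other 14 tumours, and a sum of 9 mural markers (pericytes and vessel smooth muscle) of 111910, against 5295 to 23480. p53_WT_3 had a sum of 12 mature neuron markers of 272198, where the group medians were 3901 to 8740, and the lowest sum of 6 markers of oligodendrocyte progenitors (18812, with 96838 to 279933 elsewhere). It also had the lowest level of mouse Pdgfa (1239, with 10267 to 58931 elsewhere), the gene of the injected growth factor, and of its receptor Pdgfra (5471, with at least 52093 elsewhere). The labels do not give the species of the injected PDGFA, so the first value may not count it. In such bulk samples fewer cells of a type and less RNA per cell cannot be told apart. Some tumours share the first code of their title, namely ATRXfl_G34R_1 with ATRXfl_G34R_4, p53_G34R_2 with p53_G34R_3, and p53_WT_3 with p53_WT_4. A second number in the title differs for every library. The labels do not say what either means or whether such tumours came from separate animals. The p-values thus measure the spread between these samples, which may be partly technical.

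The promoters of the genes the results turn on are shown because Polycomb acts at CpG-rich DNA. RefSeq (build GRCm38.p6, the assembly mm10 is taken from, with patches) gave a window of 300 bases, from 250 before to 50 after the transcription start, for 34 of the 46 genes. Pax3, Lhx5, Gata4, Gata6, Tbx2, Tbx3, Tbx5, Tbx15, Foxc2, Foxe1, Foxf1 and Wt1 were not matched. The 250 bases before the start are printed 5′ to 3′ in the direction of the gene, with each CG in capitals. Foxc1 (chr13:31806396-31806645, plus strand) and Foxf2 (chr13:31625566-31625815, plus strand) are neighbours that peaked in the same tumour. Six3 (chr17:85620584-85620833, plus strand) and Foxd3 (chr4:99656049-99656298, plus strand) varied most between tumours of a group. Isl1 (chr13:116309689-116309938, minus strand) and Lhx9 (chr1:138842445-138842694, minus strand) were on in a single tumour, and Lhx9 had the fewest CG of the matched genes.
Foxc1: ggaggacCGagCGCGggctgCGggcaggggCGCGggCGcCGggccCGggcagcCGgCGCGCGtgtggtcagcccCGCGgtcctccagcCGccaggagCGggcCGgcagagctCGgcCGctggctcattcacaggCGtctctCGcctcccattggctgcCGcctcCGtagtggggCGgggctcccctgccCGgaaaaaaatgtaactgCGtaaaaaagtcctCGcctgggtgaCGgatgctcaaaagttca
Foxf2: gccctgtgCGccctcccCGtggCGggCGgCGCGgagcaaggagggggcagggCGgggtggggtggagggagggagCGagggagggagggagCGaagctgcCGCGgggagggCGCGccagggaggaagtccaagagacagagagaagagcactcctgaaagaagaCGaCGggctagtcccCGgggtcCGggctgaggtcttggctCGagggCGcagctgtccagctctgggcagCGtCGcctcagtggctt
Six3: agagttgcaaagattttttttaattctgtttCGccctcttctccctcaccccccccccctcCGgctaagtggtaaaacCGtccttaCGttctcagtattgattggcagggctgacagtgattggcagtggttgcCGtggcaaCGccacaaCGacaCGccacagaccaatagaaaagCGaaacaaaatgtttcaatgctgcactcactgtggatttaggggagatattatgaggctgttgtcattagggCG
Foxd3: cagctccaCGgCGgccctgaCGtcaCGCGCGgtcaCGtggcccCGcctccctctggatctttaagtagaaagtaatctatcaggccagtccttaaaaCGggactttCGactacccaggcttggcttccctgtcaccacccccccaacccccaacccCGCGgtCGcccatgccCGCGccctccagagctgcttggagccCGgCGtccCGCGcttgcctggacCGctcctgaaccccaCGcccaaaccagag
Isl1: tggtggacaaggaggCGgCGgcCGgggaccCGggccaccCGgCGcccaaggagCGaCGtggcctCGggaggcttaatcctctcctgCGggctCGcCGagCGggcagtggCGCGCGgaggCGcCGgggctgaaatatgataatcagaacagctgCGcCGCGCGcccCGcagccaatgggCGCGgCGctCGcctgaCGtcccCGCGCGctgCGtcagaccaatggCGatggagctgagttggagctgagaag
Lhx9: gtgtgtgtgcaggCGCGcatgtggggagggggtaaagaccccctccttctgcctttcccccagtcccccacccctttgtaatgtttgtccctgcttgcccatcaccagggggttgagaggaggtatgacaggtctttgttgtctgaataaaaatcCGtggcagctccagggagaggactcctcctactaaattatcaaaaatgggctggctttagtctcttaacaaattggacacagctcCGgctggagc

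The printed stretches held 29 CG for Foxc1, 21 for Foxf2, 10 for Six3, 21 for Foxd3, 33 for Isl1 and 4 for Lhx9. Over the whole 300-base windows, with the window richest in CG taken where a gene had several, the 34 matched genes held a median of 24 CG (6 to 40). All 17491 protein-coding genes with a window held a median of 15, and 95% of them had at least 1. A window was called island-like at a GC content of at least 50% and an observed-to-expected CG ratio of at least 0.6. That applied to 27 of the 34 genes (79.4%), against 48.5% of protein-coding genes. Of the 15 matched genes that were silent in these tumours 9 were island-like, and of the 19 that were not silent 18 were. The exception among the latter was Tbx4, with 8 CG. This is a description of DNA letters, and no mark or binding was measured here.

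A gene was called silent when its mean was under 10 normalized counts. By that measure, with the mean taken over all 15 tumours, 20 of the 46 genes (43.5%) were silent. They were Pax2, Pax7, Pax8, Pax9, Six6, Lhx1, Lhx3, Lhx5, Lhx9, Gata3, Gata4, Gata5, Tbx5, Tbx20, Nkx2-3, Nkx2-5, Foxa1, Foxa2, Foxe1 and Wt1. The share was 26 of 59 (44.1%) among other genes of the same families and 6943 of 21906 (31.7%) among all protein-coding genes. The number of silent genes was nearly the same in each group, with 21 in each Atrx-floxed group, 22 in p53_G34R and 20 in p53_WT. Silence in all 4 groups held for 16 genes and a mean of at least 10 in every group for 22. The level of 10 fell between Isl1, just above it at 10.7, and Tbx20, just below it at 8.92. A silent mean does not exclude a high single tumour. Pax2, Pax7, Lhx1, Lhx9, Tbx20 and Wt1 each had at least 30 normalized counts in 1 tumour. Pax3 and Isl1, with a median of 0, passed the level through 1 tumour each.

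**Figure D1:**
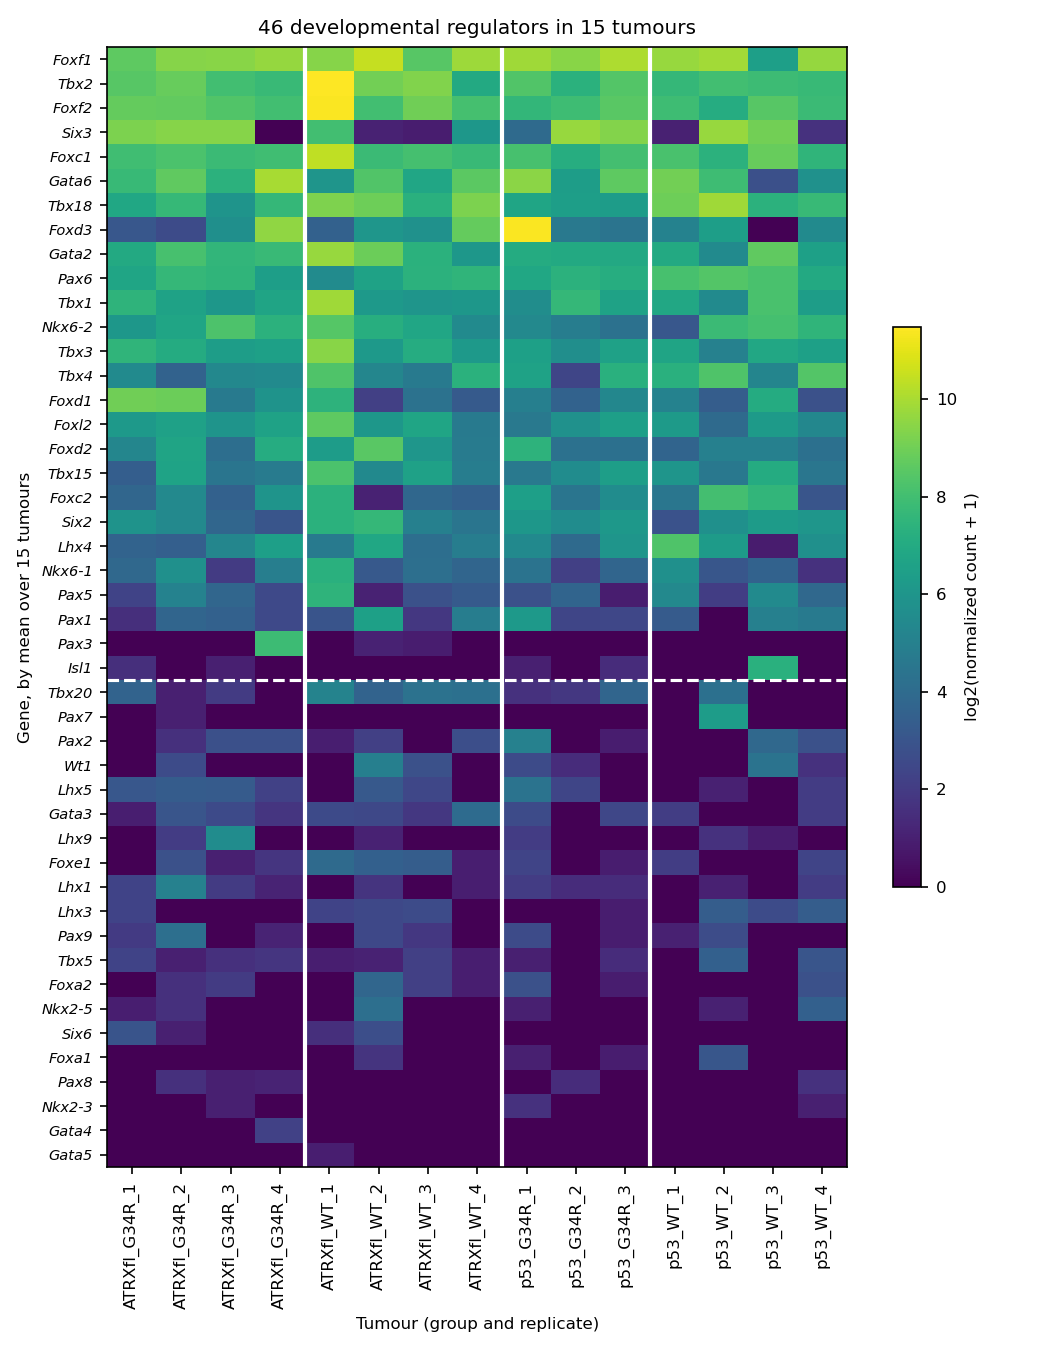
Level of all 46 genes (rows, by mean) in all 15 tumours (columns, by group, separated by white lines), coloured by log2 of the normalized count plus 1. Genes below the dashed line are the 20 with a mean under 10, and bright single cells in dark rows, such as Pax3 in ATRXfl_G34R_4 and Isl1 in p53_WT_3, are genes on in 1 tumour.

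Families differed in how many members were expressed. Fox genes had a mean of at least 10 in 8 of 11 cases and T-box genes in 6 of 8, whereas LIM-homeobox genes did in 1 of 5 (Lhx4) and GATA genes in 2 of 5 (Gata2 and Gata6). Of the Pax genes 4 of 8 passed (Pax1, Pax3, Pax5 and Pax6), of the sine oculis homeobox genes 2 of 3 (Six2 and Six3) and of the Nkx genes 2 of 4 (Nkx6-1 and Nkx6-2). Several genes had almost no reads. Gata5, a factor of heart and gut, had a read in 1 tumour only, and Gata4, of heart and gonad, in 1 other. A tumour held 20 to 25 of the 46 genes at 10 normalized counts or more, and 14 to 22 at 30 or more, with group medians of 18, 18, 18 and 18.5 in the order ATRXfl_G34R, ATRXfl_WT, p53_G34R and p53_WT. The number of expressed regulators per tumour thus overlapped between all groups.

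Expressed members varied more between tumours of a group than most genes did. The SD of log2(normalized count + 1) within groups had a median of 1.43 over the 26 expressed members and of 0.60 over all 17776 genes with a mean of at least 10. Since low counts spread more on this scale, this compares genes of unequal level. Pax3 (2.08) and Isl1 (1.97) reached the mean of 10 only through 1 tumour each, which by itself gives a large SD. Pax6, a paired-box factor of radial glia and the dorsal forebrain, varied least (0.66), and Six3, a repressor that patterns the anterior forebrain and eye, varied most (4.15), followed by Foxd3 (3.02), a forkhead factor of the early neural crest.

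By normalized counts per kilobase of exon, which allows genes to be compared, Foxf1 led at 311, followed by Foxf2 (195), Tbx2 (131), Foxd3 (125), Nkx6-2 (72.3), Tbx18 (63.7), Six3 (62.9) and Foxc1 (55.2). Single tumours carried some of these levels. Without ATRXfl_WT_1, Foxf2 was at 128 and Tbx2 at 84.6 per kilobase, and without p53_G34R_1 Foxd3 was at 48.7. Foxf1, a forkhead factor of lateral mesoderm and vessels, had 400, 668, 691 and 815 normalized counts in ATRXfl_G34R, 661, 1433, 361 and 876 in ATRXfl_WT, 915, 686 and 1080 in p53_G34R, and 837, 932, 87.2 and 807 in p53_WT. Its level was thus within 361 to 1433 in 14 tumours, and the low one was p53_WT_3, the tumour with the highest sum of neuron markers.

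Foxf2 and Foxc1, forkhead factors that brain pericytes and meningeal cells need, lie 175.2 kb apart on chromosome 13. Foxf2 had 436, 418, 329 and 258 in ATRXfl_G34R, 2681, 259, 511 and 268 in ATRXfl_WT, 191, 243 and 373 in p53_G34R, and 241, 135, 359 and 224 in p53_WT. Foxc1 had 245, 295, 225 and 251 in ATRXfl_G34R, 1333, 229, 275 and 221 in ATRXfl_WT, 277, 141 and 266 in p53_G34R, and 291, 165, 441 and 184 in p53_WT. Both were highest in ATRXfl_WT_1, and all groups overlapped.

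Tbx2, a T-box repressor that restrains cell cycle inhibitors, had 362, 441, 258 and 219 in ATRXfl_G34R, 2850, 529, 636 and 126 in ATRXfl_WT, 329, 161 and 336 in p53_G34R, and 201, 253, 231 and 212 in p53_WT. One tumour, ATRXfl_WT_1 again, was far above the rest. Gata6, a GATA factor of smooth muscle, gut and peritoneal macrophages, had 215, 403, 163 and 1002 in ATRXfl_G34R, 61.6, 328, 109 and 382 in ATRXfl_WT, 710, 83 and 395 in p53_G34R, and 515, 243, 5.98 and 55 in p53_WT. It was highest in ATRXfl_G34R_4 and lowest in p53_WT_3.

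Other T-box, GATA and forkhead genes were also expressed in most tumours. Tbx1 ranged from 44.6 to 929, Tbx3 from 31.9 to 692 and Tbx15 from 9.72 to 296, each highest in ATRXfl_WT_1. Gata2, which acts in blood progenitors and endothelium, ranged from 43.6 to 847, and Foxl2, best known from the ovary, from 14.9 to 401, both again highest in that tumour. Foxc2, a factor of lymphatic vessels and valves, ranged from 1.17 to 263, and its neighbour Foxf1, 28027 bases away on chromosome 8, did not peak in the same tumour. Likewise Tbx4 and Tbx2, 44.5 kb apart on chromosome 11, and Six2 and Six3, 55.0 kb apart on chromosome 17, were highest in different tumours.

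ATRXfl_WT_1 was the highest of the 15 tumours for 11 of the 26 expressed members (Pax5, Gata2, Tbx1, Tbx2, Tbx3, Tbx15, Nkx6-1, Nkx6-2, Foxc1, Foxf2 and Foxl2), whereas 10.3% of all 17776 expressed genes peaked there. Of the 26 members 13 (50%) were at least 4-fold above the median of the other 14 tumours, against 5.70% of expressed genes. Tbx2 was 11.2-fold above that median, Tbx1 10.4-fold, Foxf2 10.2-fold, Nkx6-1 12.6-fold and Pax5, the B cell and midbrain factor, 24-fold. Pax6 (0.279-fold), Gata6 (0.215-fold) and Foxd3 (0.224-fold) were below it. In the same tumour 7 of 9 mural markers and 8 of 9 endothelial markers reached their highest level, with 60010 normalized counts of Rgs5, 21450 of Pdgfrb, 4611 of Kcnj8 and 21356 of Cldn5, and none of these markers was at 0 in any tumour. B cell and plasma cell markers peaked there too, for 6 of 8 genes, although their sum (2614) was below that of ATRXfl_G34R_4 (6704). The sums of erythroid markers (509080, with 4 of 7 genes highest) and of T and NK cell markers (576, with 3 of 8) were the highest of the 15 tumours. The part of these cells in the level of the regulators was not tested.

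**Figure D2:**
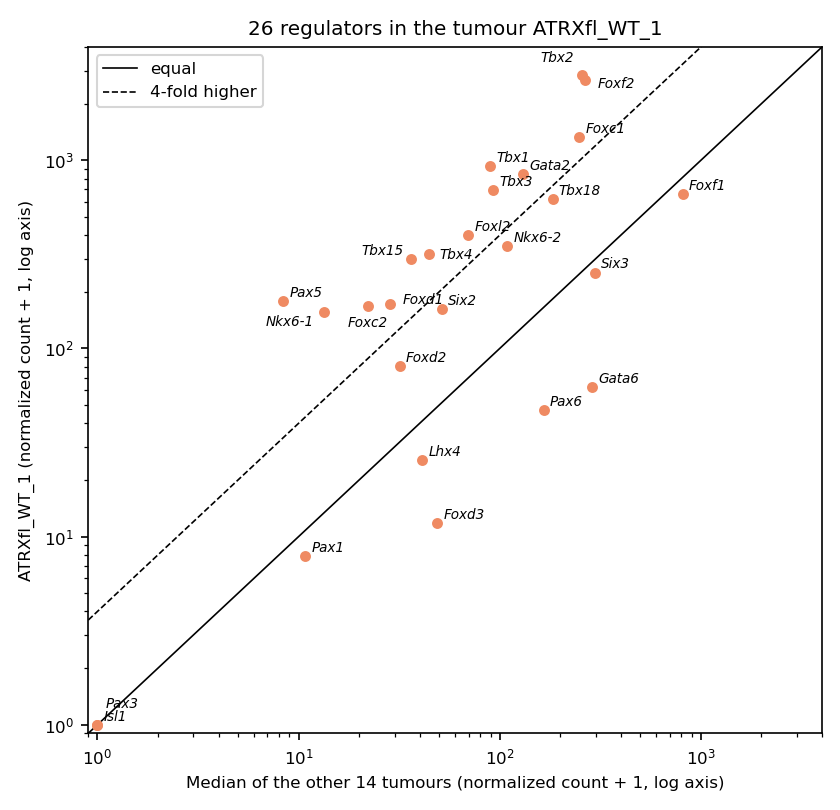
Level of the 26 expressed members in the tumour ATRXfl_WT_1 (vertical axis) against the median of the other 14 tumours (horizontal axis), both as normalized count plus 1 on log axes; each point is a gene. The 13 genes above the dashed line were at least 4-fold higher in that tumour, among them Tbx2, Foxf2, Tbx1 and Pax5.

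Six3 ranged from 0 to 843 normalized counts. It had 601, 676, 669 and 0 in ATRXfl_G34R, 252, 1.17, 0.871 and 66.3 in ATRXfl_WT, 14.5, 824 and 658 in p53_G34R, and 1.08, 843, 526 and 2.08 in p53_WT. In 5 of 15 tumours, from 3 of the 4 groups, it was under 3 normalized counts, in 8 it was at 100 or more, and p53_G34R_1 and ATRXfl_WT_4 lay between. ATRXfl_G34R_1 at 601 and ATRXfl_G34R_4 at 0 share the first code of their title. The antisense gene Six3os1 overlaps Six3 and had a mean of 101. The strand setting of the authors' counting is not given in the sources used here, so reads of the pair cannot be told apart. Across the 46 genes 21 are overlapped by a gene on the opposite strand.

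Foxd3 was strongly on in 3 tumours. It had 7.77, 5.08, 51.3 and 755 in ATRXfl_G34R, 10.8, 64.3, 55.8 and 428 in ATRXfl_WT, 2758, 24.2 and 20.4 in p53_G34R, and 32.5, 86.1, 0 and 44.6 in p53_WT. Its high tumours, ATRXfl_G34R_4, ATRXfl_WT_4 and p53_G34R_1, came from 3 groups, and the other 12 were under 100. Foxd1, a forkhead factor of the ventral forebrain and of pericyte precursors in the kidney, had 504, 477, 24.7 and 59.1 in ATRXfl_G34R, 172, 3.5, 19.2 and 8.52 in ATRXfl_WT, 30.1, 11.2 and 39 in p53_G34R, and 32.5, 9.57, 132 and 6.23 in p53_WT. The 2 tumours above 200 were both ATRXfl_G34R, but the other tumours of that group were within the range of the rest.

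**Figure D3:**
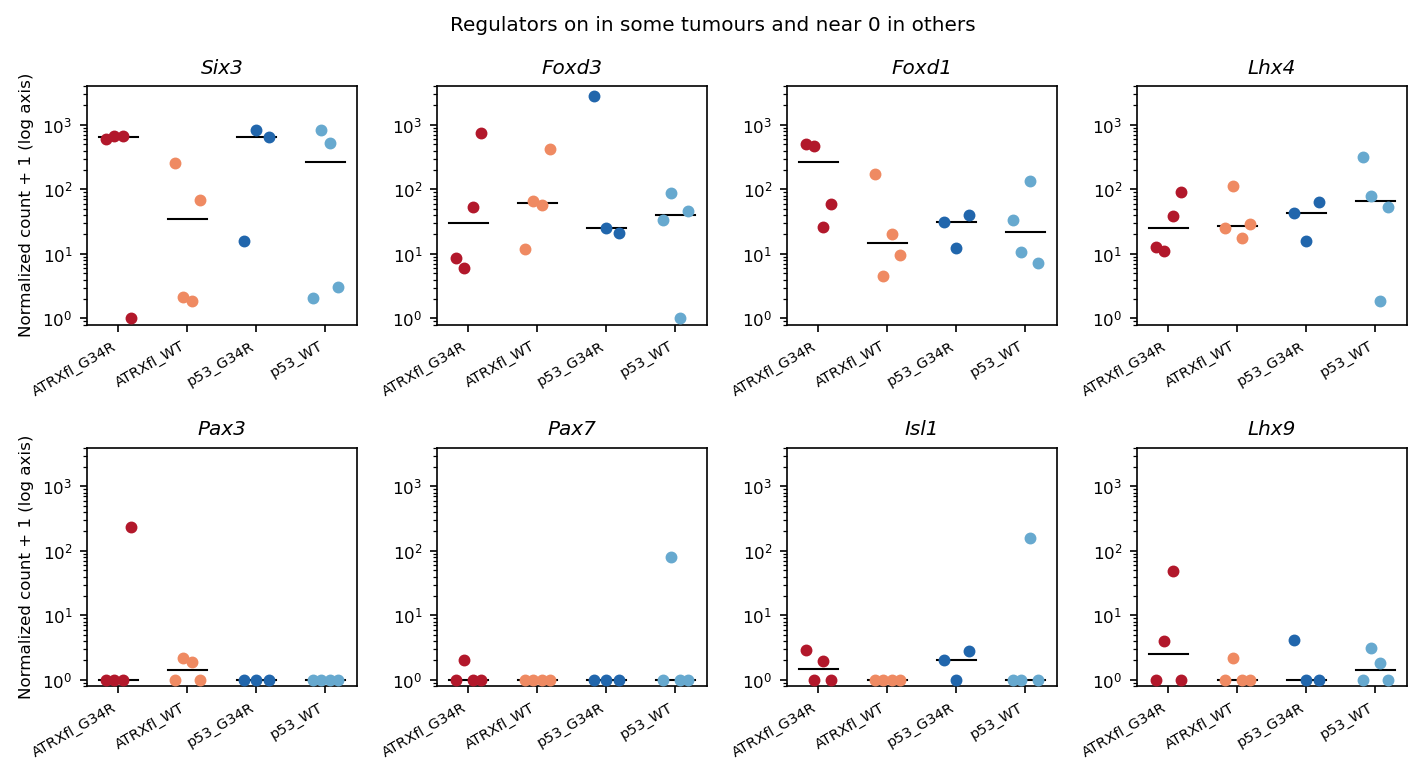
Normalized count plus 1 on a log axis for 8 genes that were on in some tumours and near 0 in others, by group; each point is a tumour and each bar the median of its group. Six3 and Foxd3 were high in tumours of more than 1 group, whereas Pax3, Pax7, Isl1 and Lhx9 were each high in 1 tumour.

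A gene was called on in single tumours when its median was under 10 and it had at least 30 normalized counts in 1 to 3 tumours. That held for 9 genes, which is 19.6% of the 46 and 37.5% of the 24 with such a median. Among other genes of the families it held for 4 of 59 (6.78%, and 14.3% of the 28 with a low median), and among protein-coding genes for 834 of 21906 (3.81%, and 11.1%). With a level of 50 in place of 30 the count was 5 (Pax1, Pax3, Pax5, Pax7 and Isl1). Pax5 enters there because it has 4 tumours at 30 or more. Wt1, Lhx1, Pax2, Tbx20 and Lhx9, whose highest levels were 30.4 to 47.4, drop out. The shares of the other sets were taken at 30 only, so whether the difference from them holds at 50 was not tested.

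Pax3, which directs the dorsal neural tube and neural crest, had 231 in ATRXfl_G34R_4 (192 reads) and at most 1.17 in the other 14 tumours, with no read in 12 of them. Pax7, its close relative of muscle stem cells and dorsal neural tube, had 79.7 in p53_WT_2 (75 reads) and at most 1.02 elsewhere, with no read in 13. Isl1, a LIM-homeobox factor of motor neurons and striatal neurons, had 155 in p53_WT_3 (181 reads) and at most 1.94 elsewhere, with no read in 10. In each case 1 tumour held nearly all reads of the gene, and it was another tumour each time. Lhx9, a LIM-homeobox factor of thalamus and gonad, had 47.4 in ATRXfl_G34R_3 (48 reads) and at most 3.12 elsewhere.

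The remaining single-tumour levels were lower. Lhx1, a LIM-homeobox factor of early mesoderm and interneurons, had 31.5 in ATRXfl_G34R_2 (31 reads), with at most 3.89 elsewhere. Pax2, a midbrain and kidney factor, had 32.2 in p53_G34R_1 (31 reads), with at most 13.7 elsewhere. Wt1, of kidney and mesothelium, had 30.4 in ATRXfl_WT_2 (26 reads), with 19.7 in p53_WT_3 as the next value. The next value was thus close for Wt1 and far for Lhx1.

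Pax1, a factor of the sclerotome, had 1.94, 12.2, 10.9 and 4.82 in ATRXfl_G34R, 6.84, 91.1, 2.61 and 28.4 in ATRXfl_WT, 70.7, 4.33 and 4.44 in p53_G34R, and 8.68, 0, 30.8 and 25.9 in p53_WT. It was on by this measure in ATRXfl_WT_2, p53_G34R_1 and p53_WT_3. Tbx20, a cardiac T-box factor, had 11.7, 1.02, 2.96 and 0 in ATRXfl_G34R, 34.2, 11.7, 19.2 and 18 in ATRXfl_WT, 2.08, 2.6 and 12.4 in p53_G34R, and 0, 18.1, 0 and 0 in p53_WT. Single-tumour genes were on in every group, in 3 tumours of ATRXfl_G34R, 2 of ATRXfl_WT, 1 of p53_G34R and 2 of p53_WT. The tumour p53_WT_3, where Isl1 was on, also had the highest sums of neuron, astrocyte and oligodendrocyte markers (111201 for the last). Its sum of microglia and macrophage markers was the highest too (67934, with 54858 in ATRXfl_G34R_4). ATRXfl_G34R_4, where Pax3 and Foxd3 were high, had the highest sum of choroid plexus markers (867, with 850 in p53_WT_3). It also had the highest summed level of B cell and plasma cell markers (6704, with a median of 498 over all 15). Jchain, an antibody chain of plasma cells, made up 6191 of that sum, and Ebf1 of the B cell markers was at its lowest there (67.5). The part of those cells in the single-tumour levels was not tested.

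Between groups, log2 changes were fitted with limma on log2 of the authors' normalized value plus 1, using genes whose mean in the table reached 10, and calls needed a p under 0.05 after Benjamini-Hochberg adjustment over every gene tested. The mean was reached by 25 to 27 of the 46, depending on the table, and a member can pass through the group where it is high. That was so for 3 members in each comparison, whose other group had a mean under 10. Counts above and below 0 and medians over the tested members include these 3, but by name only their levels are given. No member was called by limma or by edgeR in any comparison. DESeq2 called 2, both in Atrx-floxed against intact tumours under H3.3G34R, where it called 0.48% of the genes with an adjusted p. In the other comparisons it called 0.154% (histones, floxed), 0.0788% (histones, intact), 0.378% (Atrx under H3.3WT), 0.324% (both changes) and 0.0555% (interaction) of such genes. The share called by edgeR was 0.0112% for Atrx under H3.3WT, 0.0113% for both changes and 0% in the other 4. The comparisons share groups with each other, so they are not independent.

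**Figure D4:**
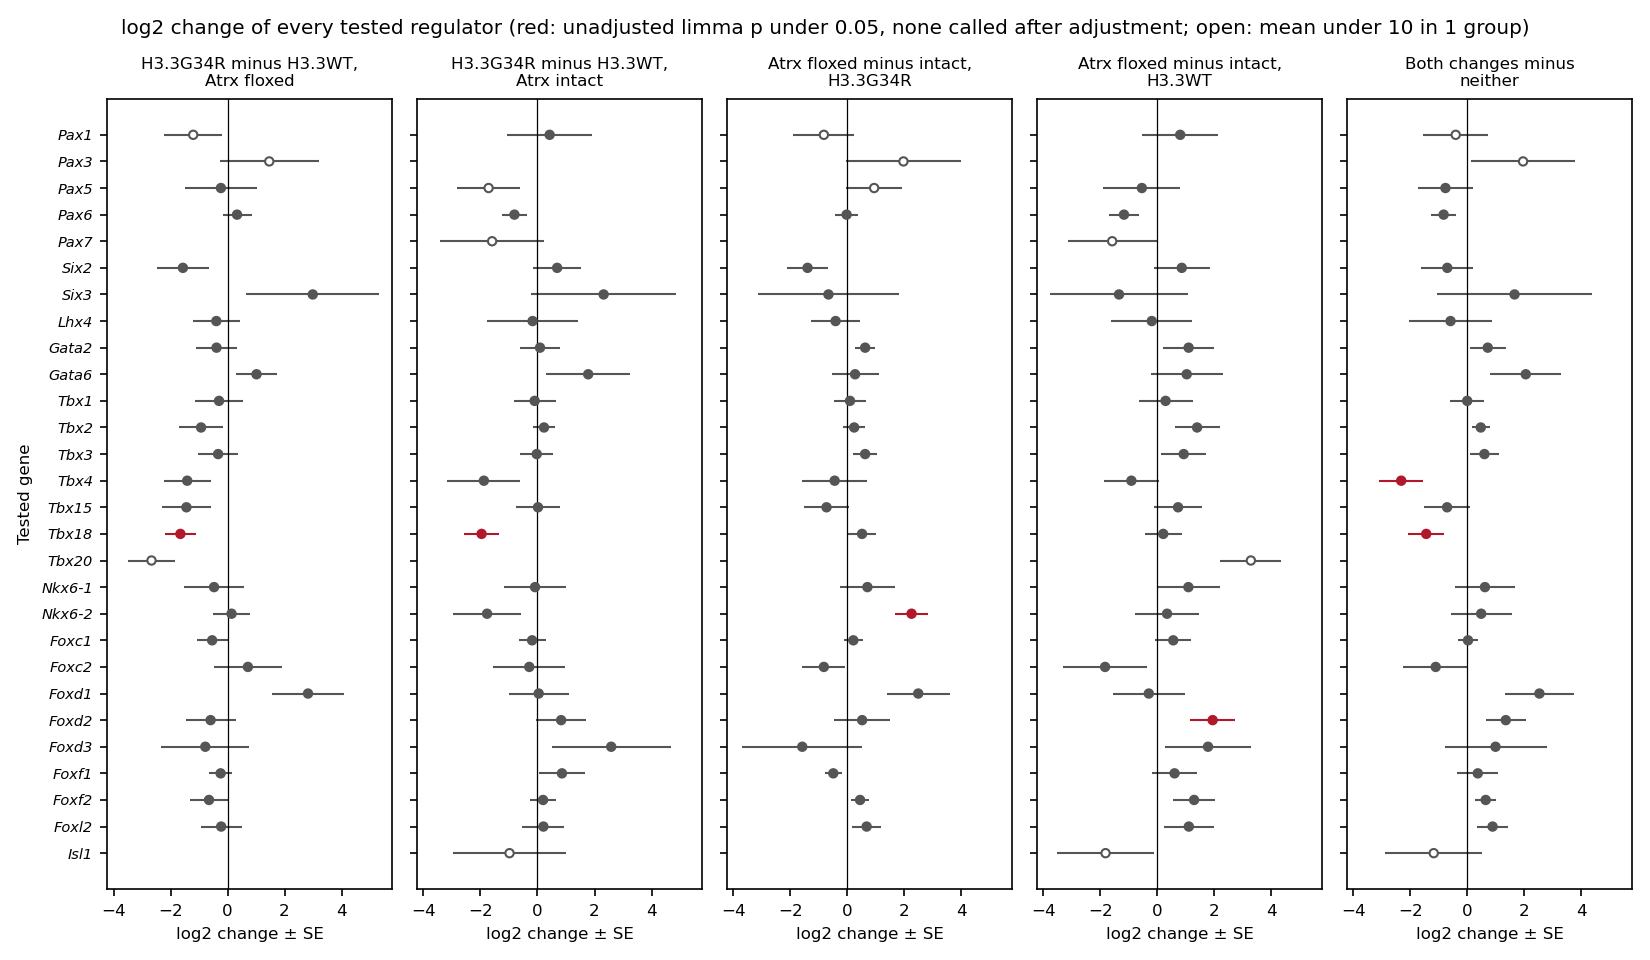
Log2 change with its SE (horizontal axis) of each tested gene (vertical axis) in the 5 comparisons of group pairs, from limma; red marks an unadjusted p under 0.05, and open points are genes with a mean under 10 in 1 of the groups, which are not marked. Tbx18 lies left of 0 in both comparisons of H3.3G34R with H3.3WT, and no gene was called after adjustment.

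H3.3G34R against H3.3WT in Atrx-floxed tumours asks what the mutant histone does where Atrx is lost. Of 26 tested members 7 were above 0 and 19 below, with a median log2 change of -0.39, against 0 for all 17521 genes tested. Limma called none of them (0% of all genes were called). Of the 23 members with a mean of at least 10 in both groups, 1 had an unadjusted limma p under 0.05, Tbx18, which was lower (2.79% of all genes). Tbx20 passed the filter through ATRXfl_WT alone and is not counted. No member had groups without overlap (2.16% of all genes). The authors' deposited table called none of them, and 0.182% of its genes. Its smallest adjusted p of a member, by DESeq2, was 0.288 for Tbx18. Without ATRXfl_WT_1 the median of the members was 0.09, so the sign of the median, though not that of each gene, rests on that tumour. Without ATRXfl_WT_3 it was -0.63 and without ATRXfl_WT_4 it was -0.72, and DESeq2 gave -0.73 and edgeR -0.93.

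Among members with a mean of at least 10 in both groups, Tbx18, Foxd1 and Six2 had the smallest p. Tbx18, a T-box factor that marks pericytes and vascular smooth muscle, had 113, 205, 60.2 and 199 in ATRXfl_G34R and 620, 494, 153 and 601 in ATRXfl_WT. Only ATRXfl_WT_3 lay within the range of the H3.3G34R tumours (144 ± 70.2 against 467 ± 216, SD, n = 4 each; limma log2 change -1.65 ± 0.55 SE, adjusted p = 0.99968). Tbx20 had 3.91 ± 5.31 against 20.8 ± 9.55 on few reads. Foxd1 had 266 ± 260 against 50.8 ± 81.1 (2.82 ± 1.28), and its high tumours ATRXfl_G34R_1 and ATRXfl_G34R_2 made that difference. Six2, a factor of nephron progenitors and craniofacial mesenchyme, had 58.3, 41.7, 12.8 and 7.23 in ATRXfl_G34R against 161, 201, 30.5 and 20.8 in ATRXfl_WT, groups that overlap (-1.57 ± 0.90). The mural markers were also lower on the median under H3.3G34R here (log2 -0.67, 9 of 10 below 0, none called). The sum of the 9 mural markers used above was 111910 in ATRXfl_WT_1 and 8081, 21000 and 6991 in the other ATRXfl_WT tumours. In ATRXfl_G34R it was 6693 to 23480, a range that held all ATRXfl_WT tumours but ATRXfl_WT_1. Markers of mature neurons were 12 of 12 above 0 (median 2.31, 6 at an unadjusted p under 0.05, none called), with sums of 6406 to 24342 against 3366 to 6812. Erythroid markers were 6 of 6 above 0 (0.96) and oligodendrocyte markers 10 of 10 (0.55). The part of these cells in the levels of the regulators was not tested. Without ATRXfl_WT_1, Tbx18 was still -1.46.

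In Atrx-intact tumours the same comparison had 13 of 26 tested members above 0 and 13 below, with a median of -0.01, against 0 for all 17873 genes. Limma called none (0% of all genes), and 1 member, Tbx18, had an unadjusted p under 0.05 (1.47% of all genes). It was also the single member whose groups did not overlap (2.61% of all genes). The authors' deposited table called no member, and 0.0578% of its genes. Its smallest adjusted p of a member, by DESeq2, was 0.236 for Tbx18.

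Tbx18 had 106, 85.6 and 80.7 in p53_G34R and 493, 922, 165 and 210 in p53_WT. Each H3.3G34R tumour was below each H3.3WT tumour (90.8 ± 13.4, n = 3, against 447 ± 348, n = 4; limma log2 change -1.96 ± 0.63 SE, adjusted p = 0.99999, unadjusted p = 0.0142). Without p53_WT_3 the change was -2.33. Of the 3 H3.3G34R tumours, p53_G34R_2 and p53_G34R_3 share the first code of their title. Of the mural markers 7 of 10 were above 0 (median 0.32, none called), and the sum of the 9 without Cspg4, which progenitors of oligodendrocytes share, was 5317 to 14934 in p53_G34R and 5295 to 12105 in p53_WT. Markers of mature neurons were 11 of 12 below 0 (-1.53), erythroid markers 6 of 6 below 0 (-1.78) and progenitor markers 8 of 8 above 0 (0.73), with none called. The neuron sum was 272198 in p53_WT_3 and 1109 to 6982 in the other p53_WT tumours, against 2855 to 6988 in p53_G34R. The part of these cells in the Tbx18 level was not tested. Tbx18 was thus lower under H3.3G34R in both Atrx genotypes, in comparisons that share no tumour, and was called in neither. Pax6 had 113, 163 and 142 against 284, 336, 290 and 126, with 1 H3.3WT tumour inside the range of the H3.3G34R tumours (-0.81 ± 0.45). Pax5 had 6.24, 12.1 and 0.887 against 41.2, 3.19, 44.4 and 13.5, and passed the filter through p53_WT alone. Nkx6-2 had 41.6, 28.5 and 18.6 against 7.59, 223, 274 and 184 (-1.77 ± 1.20), where p53_WT_1 went against the other H3.3WT tumours.

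Of the 24 members tested in both comparisons of the histones, 3 were above 0 in both, 8 below 0 in both and 13 went opposite ways. The test of that difference, an interaction fitted over all 15 tumours, called no member by limma or DESeq2 and none at an unadjusted p under 0.05 by limma, among 26 tested (0% of all 17776 genes called, and 2.05% at the unadjusted level). The smallest p was that of Six2 (-2.26 ± 1.33 SE, adjusted p = 0.99959, limma), followed by Pax6 (1.14 ± 0.69), Foxd1 (2.78 ± 1.83) and Nkx6-2 (1.91 ± 1.41).

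Atrx-floxed against Atrx-intact tumours under H3.3G34R had 15 of 25 tested members above 0 and 10 below, with a median of 0.24 (0.07 without p53_G34R_2). Limma called none of them (0.0229% of all 17459 genes), and 1 had an unadjusted p under 0.05 (3.39% of all genes). The same gene, Nkx6-2, was the only member whose groups did not overlap (4.64% of all genes). The authors' deposited table called 2 members, Nkx6-2 and Foxd1, with log2 changes of 2.44 (adjusted p = 0.00814) and 3.32 (adjusted p = 0.0410), and 0.538% of its genes.

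Nkx6-2, a homeobox factor of the ventral neural tube and of myelinating oligodendrocytes, had 67, 107, 307 and 163 in ATRXfl_G34R and 41.6, 28.5 and 18.6 in p53_G34R. Every floxed tumour was above every intact one (161 ± 105, n = 4, against 29.6 ± 11.5, n = 3; limma log2 change 2.25 ± 0.57 SE, adjusted p = 0.989, unadjusted p = 0.00379). DESeq2 on the recovered reads gave an adjusted p of 0.00897 and edgeR one of 0.99994. Leaving out each tumour in turn gave 1.87 to 2.59 with limma. Of the 3 intact tumours, p53_G34R_2 and p53_G34R_3 share the first code of their title. Under H3.3WT the same contrast was 0.34 ± 1.13, with 350, 144, 109 and 44.5 against 7.59, 223, 274 and 184, groups that overlap. The oligodendrocyte markers moved the same way under H3.3G34R, with 10 of 10 above 0, a median of 0.92 and none called, and their summed level was 11958 to 103122 in ATRXfl_G34R and 15094 to 31838 in p53_G34R. Other lists also moved, and erythroid, neuron and meningeal fibroblast markers by more. Erythroid markers were 6 of 6 above 0 (median 3.74, 5 at an unadjusted p under 0.05), with sums of 15516 to 293571 against 490 to 29753. Markers of mature neurons were 11 of 12 above 0 (1.69, 3 at that level) and of astrocytes 8 of 8 (0.76). Markers of meningeal fibroblasts were 10 of 10 below 0 (-1.28, 3 at that level), with sums without Pdgfra of 2099 to 13450 against 8983 to 22710. None of these markers was called. Nkx6-2 also overlaps Inpp5a on the other strand (mean 878), and the part of these cells or of that gene in its level was not tested.

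Foxd1 had 504, 477, 24.7 and 59.1 in ATRXfl_G34R and 30.1, 11.2 and 39 in p53_G34R, so the groups overlapped (266 ± 260 against 26.8 ± 14.2; limma 2.48 ± 1.10 SE, adjusted p = 0.9999; DESeq2 adjusted p = 0.0452). Six2 had 58.3, 41.7, 12.8 and 7.23 against 66.5, 47.6 and 68.3, with 1 floxed tumour inside the intact range (-1.40 ± 0.73). Gata2 had 125, 282, 186 and 221 against 133, 126 and 120, where the lowest floxed tumour was inside the intact range (0.62 ± 0.35).

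**Figure D5:**
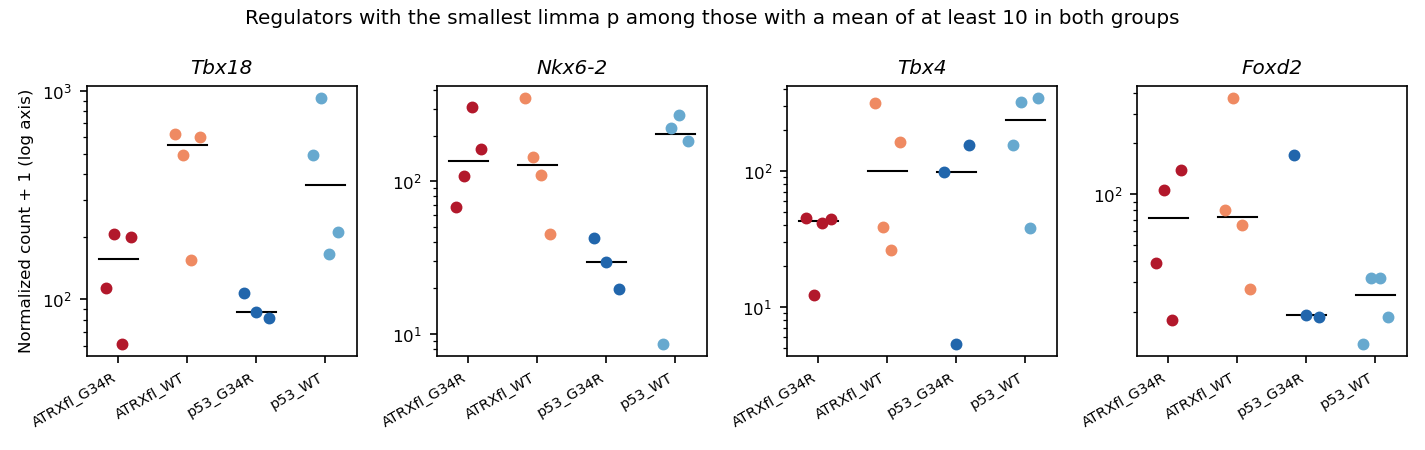
Normalized count plus 1 on a log axis for the 4 genes that had the smallest limma p in a comparison among those with a mean of at least 10 in both groups, by group; each point is a tumour and each bar the median of its group. Nkx6-2 in p53_G34R (18.6 to 41.6) lies below all ATRXfl_G34R tumours, and Tbx18 in p53_G34R below all p53_WT tumours.

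Under H3.3WT, Atrx-floxed tumours had 18 of 27 tested members above the intact ones and 9 below, with a median of 0.60, against -0.01 for all 17893 genes. Limma called none of them (0.0335% of all genes). Of the 24 members with a mean of at least 10 in both groups, 1 had an unadjusted p under 0.05, Foxd2, which was higher (3.76% of all genes). Tbx20 passed the filter through ATRXfl_WT alone and is not counted. No member had groups without overlap (2.65% of all genes). The authors' deposited table called none, and 0.352% of its genes. Without ATRXfl_WT_1 the median of the members was 0.04, so the size of the median, though not the change of each gene, rests on that tumour. The mural markers had 9 of 10 above 0 and a median of 1.15, and the endothelial markers 8 of 9 and 0.73, with none called. The sum of 9 mural markers was 111910 in ATRXfl_WT_1 and 6991 to 21000 in the rest of that group, against 5295 to 12105 in p53_WT. The endothelial sum was 78307 in ATRXfl_WT_1 and 8029 to 16425 in the rest, against 7793 to 21636. Markers of mature neurons were 11 of 12 below 0 (-2.74) and of meningeal fibroblasts 11 of 12 below 0 (-0.999), also with none called. The neuron sum was 272198 in p53_WT_3 and 1109 to 6982 in the other p53_WT tumours, against 3366 to 6812 in ATRXfl_WT. Fibroblast sums without Pdgfra were 1094 to 20908 in ATRXfl_WT and 1955 to 17618 in p53_WT, highest in p53_WT_3 of that group. The part of these cells in these levels was not tested.

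Tbx20 had 20.8 ± 9.55 in the floxed and 4.52 ± 9.04 in the intact tumours (SD, n = 4 each), where 3 of 4 intact tumours had no read and p53_WT_2 had 18.1. Foxd2, a forkhead factor of kidney stroma and head mesenchyme, had 79.2, 369, 64.5 and 26.5 in ATRXfl_WT and 11.9, 30.8, 30.8 and 17.6 in p53_WT. A single floxed tumour fell within the intact range (1.94 ± 0.78, limma adjusted p = 0.975). Pax6 had 45.9, 98.1, 166 and 179 against 284, 336, 290 and 126 (-1.17 ± 0.54), with p53_WT_4 inside the floxed range. Foxf2 had 930 ± 1173 against 240 ± 92.1 (1.29 ± 0.72), and leaving out ATRXfl_WT_1 took it to 0.53. Of the 24 members tested in both Atrx comparisons, 12 were above 0 in both, 5 below 0 in both and 7 went opposite ways.

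Tumours with both changes (ATRXfl_G34R) against those with neither (p53_WT) had 15 of 26 tested members above 0 and 11 below, with a median of 0.42, against -0.01 for all 17659 genes. With DESeq2 and with edgeR the median of the same members was -0.05, and with limma it was 0.01 without ATRXfl_G34R_4 and 0.07 without ATRXfl_G34R_2, so no direction holds for the set. Limma called none of them (0.0227% of all genes). At an unadjusted p under 0.05 there were 2, Tbx4 and Tbx18, both lower (4.37% of all genes), and none had groups without overlap (2.94% of all genes). The authors' deposited table called 1 member, Tbx4, lower, with a log2 change of -2.61 (adjusted p = 0.0487), and 0.38% of its genes.

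Tbx4, a T-box factor of hindlimb and lung mesenchyme, had 43.7, 11.2, 40.5 and 43.4 in ATRXfl_G34R and 153, 319, 36.8 and 341 in p53_WT. Only p53_WT_3 lay within the range of the tumours with both changes (34.7 ± 15.7 against 213 ± 144, n = 4 each; limma -2.32 ± 0.78 SE, adjusted p = 0.999; DESeq2 adjusted p = 0.0556; edgeR adjusted p = 0.911). Without p53_WT_3 the change was -3.02. Tbx18 had 144 ± 70.2 against 447 ± 348 (-1.44 ± 0.63), Foxd1 266 ± 260 against 45 ± 58.9 (2.53 ± 1.22) and Foxd2 74.2 ± 56.4 against 22.8 ± 9.53 (1.35 ± 0.71). Of these, Foxd1 and Foxd2 were above 0 and both T-box genes below it. Markers of meningeal fibroblasts were 10 of 12 below 0 (median -1.06), erythroid markers 5 of 6 above 0 (1.90) and progenitor markers 8 of 8 above 0 (0.60), with none called. Fibroblast sums without Pdgfra overlapped, at 2099 to 13450 in ATRXfl_G34R and 1955 to 17618 in p53_WT. The part of these cells was not tested.

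The genes of Polycomb itself were given beside their targets. Ezh2 had 1263, 1501, 1793 and 2911 in ATRXfl_G34R, 888, 426, 2014 and 1525 in ATRXfl_WT, 1252, 1770 and 1861 in p53_G34R, and 1800, 3014, 513 and 1928 in p53_WT. It was lowest in ATRXfl_WT_2 and p53_WT_3, and all groups overlapped. Eed ranged from 528 to 1361 and Suz12 from 1089 to 2924, both lowest in p53_WT_3 and highest in p53_WT_2. In every comparison limma called 0 of 12 tested PRC2 genes, 0 of 19 PRC1 genes and 0 of 6 genes of H3 demethylases and activating partners. No gene of the first pair of lists reached an unadjusted p under 0.05, and 1 of the third did, lower in floxed tumours under H3.3G34R. Their medians lay between -0.19 and 0.15 on the log2 scale. Of the other genes of the same families 32 or 33 of 59 were tested and 0 were called, with 2 to 4 at an unadjusted p under 0.05 in 5 of the 6 comparisons and 1 in Atrx-intact tumours between the histones, and medians from -0.07 to 0.10.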

How the data were processed

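Tumour RNA (RNeasy extraction, TruSeq mRNA libraries, per the labels' protocols) was aligned with STAR 2.7 to mm10 and counted and compared with HTSeq and DESeq2, per the submitters' processing notes; other settings were not given in the sources used here. Each of the 5 deposited tables has 54232 genes. The authors made the deposited signal of each library by dividing its read counts by 1 size factor per table. Per the file headers, the deposited tables also hold a log2 fold change and, as a score, its standard error and Wald statistic, and p-values before and after adjustment. All values (100%) were whole multiples of 1 read within 0.01, and the reads were recovered by division, except from 3 columns where 1 read is worth about 1.

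Levels are recovered reads scaled together by the median of ratios. Changes were fitted with limma 3.58.1 (trend, robust; R 4.3.3) on log2(deposited value + 1) within each table for genes whose mean reached 10, and the interaction on the 15 libraries scaled together. The pseudocount understates changes of low genes. DESeq2 1.42.0 and edgeR 4.0.16 on recovered reads were alternatives. Gene IDs were matched to GENCODE vM21 symbols (54079, 99.7%), which may not be the authors' annotation. The fit was tested on simulated data with 200 changed genes, drawn at random from all tested genes. The members varied more within groups (median SD of log2 1.43 against 0.60), so the shares recovered may be too high for them. For Atrx-floxed tumours compared between histones, on 17521 genes, it recovered 6% of 2-fold and 76% of 8-fold changes with 8 false calls. In intact tumours (17873 genes) it recovered 0% and 58%, for Atrx under H3.3G34R (17459) 2% and 86%, for Atrx under H3.3WT (17893) 0% and 44%, for both changes (17659) 2% and 66% and for the interaction (17776) 0% and 52%, with 2 to 6 false calls.

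The 46 genes and all lists were chosen with earlier results of these data known. Tumour values are given for members called, members whose groups do not overlap, the 4 with the smallest limma p in each comparison, those on in single tumours and the 6 with the highest mean; values given for others were chosen after they were seen. Groups come from the labelled genotype and histone, with replicates numbered in accession order. No library was left out.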

Additional observations from a re-analysis of the deposited data

Results flagged for a closer look

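In 78 groups of 4 tumours (26 expressed genes in 3 groups), 17 values lay so far from the other 3 that Dixon's ratio of gap to range passed 0.829. Chance flags about 1 in 20 such groups where values are normally distributed. Counts are skewed and the genes share tumours, so the 17 cannot be read against that share, and Pax3 and Isl1 reached the mean of 10 only through the tumour named here. Of the 17, 8 were in ATRXfl_WT_1, where Pax5 had 177 normalized counts, Tbx1 929, Tbx3 692, Nkx6-1 155, Foxc1 1333, Foxc2 167, Foxd1 172 and Foxf2 2681. In ATRXfl_G34R_4, Pax3 was high at 231 and Foxd3 at 755, and Six3 was low at 0 where the nearest tumour of the group had 601. In ATRXfl_WT_2, Lhx4 had 112 and Foxd2 369. In ATRXfl_WT_4, Foxd3 had 428. Tbx4 was low in ATRXfl_G34R_2 at 11.2. In p53_WT_3, Foxf1 was low at 87.2 and Isl1 high at 155.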

How the results depend on the processing

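No paired analysis was possible because the labels give no replicate numbers. Over pseudocounts of 0.5 and 5, no filter, DESeq2, edgeR, TMM scaling, summing libraries that share a title code and leaving out each library, limma and edgeR called no member in any comparison. DESeq2 called 2, both in Atrx-floxed against intact tumours under H3.3G34R. Over all genes DESeq2 called 33 between the histones in floxed tumours, 14 in intact tumours, 111 for Atrx under H3.3G34R, 78 under H3.3WT, 75 for both changes against neither and 12 for the interaction, where limma called 0, 0, 4, 6, 4 and 0. For Atrx under H3.3G34R, Atrx under H3.3WT and both changes, edgeR called 0, 2 and 2 genes, as did limma on summed libraries, and leaving out 1 library gave 0 to 5, 2 to 8 and 2 to 8. Without a filter limma called 12 for Atrx under H3.3G34R, and with a pseudocount of 0.5 it called 2 for both changes. The cause was not tested.

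The median change of the members turned its sign in floxed tumours between the histones without ATRXfl_WT_1 (0.09), in intact tumours without a filter (0.04) and without p53_G34R_2 (0.23), p53_WT_1 (0.11) or p53_WT_3 (0.30), and for both changes against neither with DESeq2 and edgeR (-0.05). Other medians that moved by more than the spread between tumours are given beside their comparisons. Of 370 values of single genes under these settings none changed sign, and 5 moved by at least their standard error in the reported fit, namely Tbx20 with a pseudocount of 5 or with DESeq2 or edgeR (4 values) and Foxf2 between Atrx genotypes under H3.3WT without ATRXfl_WT_1 (0.53). The count of silent genes was 17 with a mean under 5, 22 under 20, 24 by the median and 20 or 21 without any 1 library. The count on in single tumours was 8 at 20 and 5 at 50, and 8 to 10 without any 1 library. Depth limits the silent genes, since a level under 10 normalized counts rests on about 10 reads.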
